A study of Mus musculus with 12 samples.

Results

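The protein genes of the cytosolic ribosome were followed in female germ cells of mouse embryos whose mothers were supplied with vitamin C or withdrawn from it. A gene was taken where its symbol starts with Rpl or Rps and a digit, or is Rpsa, Rplp0, Rplp1 or Rplp2. Of 95 symbols of that form, 2 with -ps in the symbol (Rpl34-ps1 and Rps19-ps3), 9 Rps6k kinases and Rpl10l were left out. The remaining 83 of the 12516 listed genes are the members described here, and all 83 passed the filter on low values. They comprise 31 proteins of the small subunit, 42 of the large subunit, the 3 proteins of the P stalk, and 7 paralogs and related symbols. Rpl26 was not analysed here. Of the 7 related symbols, Rps4y2 matched RefSeq only as a synonym of Rps4l, there a transcribed pseudogene, so its identity is uncertain, and Rps19bp1 encodes a protein that binds Rps19 and is not a ribosomal protein.

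RNA was sequenced from 12 single female embryos at embryonic day 13.5, 6 per diet. All 12 were Gulo-/- on a C57BL/6 background, so that vitamin C came from the diet only, and the supplied embryos share that genotype. Supplied mothers received physiological vitamin C, and in the other arm it was removed over the opening weeks of gestation. RNA came from Oct4+ sorted germ cells. No Gulo+/+ embryo, male embryo or other age was analysed here, so the diet is compared in a single genotype, sex and stage. Each sample title opens with a digit from 1 to 4, found in either diet, called the title number below. Title numbers 1 and 4 hold 2 embryos per diet and title numbers 2 and 3 hold 1. The labels do not say what the number stands for or whether embryos that share it are siblings. If they share a mother, the p values below are too small.

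A cytosolic ribosome has a small subunit, which reads the mRNA, and a large subunit, which joins amino acids and threads the new chain through an exit tunnel. The P stalk of the large subunit recruits elongation factors. Most mRNAs of ribosomal proteins begin with a C and a run of pyrimidines, the TOP motif, through which mTOR and Larp1 control their translation. Germ cells of the female gonad pass from proliferation to meiosis at about this age, and ribosome supply is one of the activities that accompany growth and division.

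Start regions of the members were searched for runs of pyrimidines, the kind of sequence that opens a TOP mRNA. They were read from the RefSeq promoter table of build GRCm38.p6, which is not the build of the deposited values (mm9). Each window runs from 40 bases before to 20 after the annotated start, 5′ to 3′ on the gene's strand. Capitals mark a C followed by at least 7 bases that are each C or T, searched on the gene's strand within 30 bases of the start. A run on either side of the start was taken, so a run is not by itself a TOP motif. The 7 called members of the core ribosome with an entry are shown, with Rps15a, 1 of the 3 members with a negative fold change, for comparison.
Rps25, chr9:44407674-44407733, plus strand: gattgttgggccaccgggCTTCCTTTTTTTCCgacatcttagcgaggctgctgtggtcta
Rpl35, chr2:39005112-39005171, minus strand: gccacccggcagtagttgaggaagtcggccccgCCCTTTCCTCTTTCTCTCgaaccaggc
Rpl4, chr9:64173347-64173406, plus strand: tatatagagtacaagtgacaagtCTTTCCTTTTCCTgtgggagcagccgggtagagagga
Rps9, chr7:3704001-3704060, plus strand: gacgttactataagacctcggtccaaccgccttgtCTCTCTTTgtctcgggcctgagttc
Rps7, chr12:28635934-28635993, minus strand: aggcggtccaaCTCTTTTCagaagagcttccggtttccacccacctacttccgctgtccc
Rplp0, chr5:115559427-115559486, plus strand: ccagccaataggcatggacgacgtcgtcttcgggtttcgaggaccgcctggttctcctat
Rps13, chr7:116334171-116334230, minus strand: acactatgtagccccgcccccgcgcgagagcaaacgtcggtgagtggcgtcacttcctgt
Rps15a, chr7:118116128-118116187, minus strand: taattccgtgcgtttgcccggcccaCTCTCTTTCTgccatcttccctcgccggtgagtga
The windows of Rplp0 and Rps13 hold no such run, and that of Rps15a does. The window of Rpl10, also with a negative fold change, holds none. The runs of Rps25, Rpl4, Rps7 and Rps15a lie wholly before the annotated start, and those of Rpl35 and Rps9 span it.

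The pyrimidine run was found in 34 of the 62 members that matched the table (54.8%), against 20.6% of all 27025 symbols there and 21.5% of the 9934 that are also in the deposited table. CCGGAA, the core of sites for ETS factors, was searched on both strands over 300 bases and was found in 34 of the 62 (54.8%), against 16.7% of all symbols and 31.9% of the listed ones. AANATGGC, the core of sites for Yy1, was searched the same way and was found in 13 of the 62, against 7.0% of all symbols and 10.2% of the listed ones. The members with the pyrimidine run had a median log2 fold change of 0.13 between the diets (34 members, 5 called) and those without it 0.12 (28 members, 3 called). A match is a description of letters, and annotated starts can differ from those used in these cells.

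**Figure D1:**
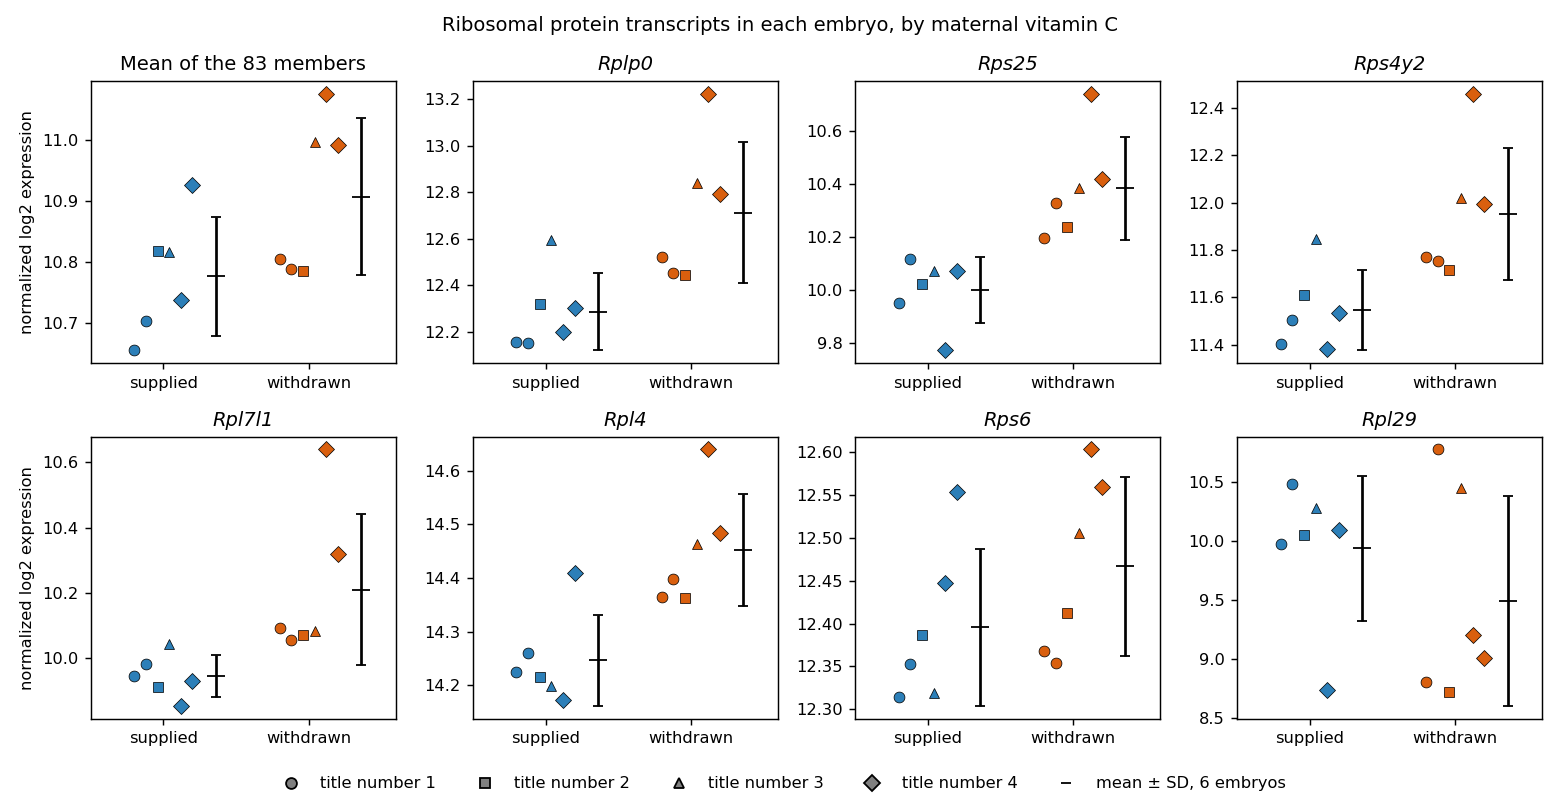
Normalized log2 expression (y axis) of the mean of the 83 members and of 7 single members in each of the 12 embryos by diet (x axis). Symbols give the title number and bars the mean ± SD of 6 embryos. The diets overlap in the mean of the members and are apart in Rps25 and Rpl7l1.

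Values are normalized log2 expression as deposited by the authors. Fold changes are withdrawn minus supplied on that log2 scale, with the standard error (SE) and the Benjamini-Hochberg adjusted p of limma's moderated test over 12432 genes. A gene was called at an adjusted p below 0.05. Of all genes tested, 6.22% were higher in withdrawn embryos by this rule, 7.75% were lower, and 4.49% had values in the 2 diets that did not overlap. Sequencing depth is unknown, and Pearson correlations between libraries across genes ran from 0.986 to 0.999. All 9 germ cell markers looked for were measured, and 5 were called higher and 2 lower (Ddx4 and Dazl). Of 14 markers of supporting cells, 3 were called lower (Kitl, Lhx2 and Emx2) and 0 had a positive fold change, with a list mean of 5.19 to 5.41 in supplied and 5.11 to 5.28 in withdrawn embryos. Of 5 mesenchyme markers 1 was called lower (Fbln1), 0 had a positive fold change and 4 had an unadjusted p below 0.05, with a median of -0.21 and a list mean of 6.21 to 6.62 in supplied and 6.18 to 6.32 in withdrawn embryos. The median of the supporting cell markers was -0.11. By limma 0 of 6 endothelial and 0 of 5 macrophage markers were called, and erythroid markers were not analysed here. In a sorted pool, fewer cells of a type and less RNA per cell cannot be told apart.

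Most members were slightly higher in withdrawn embryos. The fold change was positive in 80 of 83 members (96.4%), against 46.6% of all genes tested, and its median was 0.14, against -0.01 over all genes. By limma 9 members rose (10.8%) and 0 fell. At an unadjusted p below 0.05 the counts were 32 higher and 0 lower of 83. In either direction that is 32 of 83 members, beside 3754 of the 12432 genes tested. The count of all genes higher at that threshold is not given here. Among the 1244 genes with the highest means it was 503 in either direction, and 20 of the 41 members there. An exact permutation test adjusted over all genes called 2 members, beside 558 genes in either direction. Its smallest possible p was 0.00216, reached only where the diets do not overlap. The same 2 members and 558 genes (4.49%) had no overlap, so it is not a separate check. The share of the members, 2 of 83, was below that of all genes. The share of members that rose stands beside the 6.22% of all genes called higher. It was 15.6% over the 1244 genes with the highest means, which hold 41 of the members. The differences were small, with the largest positive one at 0.42 and those of the 74 members that were not called between -0.44 and 0.26.

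In each embryo the mean of the 83 members summarises the shift. It was 10.66, 10.70, 10.82, 10.82, 10.74 and 10.93 in supplied embryos 1 to 6, and 10.80, 10.79, 10.79, 11.00, 11.07 and 10.99 in withdrawn embryos 1 to 6. Withdrawn embryos 4, 5 and 6 lay above every supplied embryo, and withdrawn embryos 1, 2 and 3 lay inside the supplied range. The group means were 10.78 ± 0.10 (SD, n = 6) and 10.91 ± 0.13 (SD, n = 6), a difference of 0.13, while the median of all genes differed by -0.02. The mean of the small subunit differed by 0.13 and that of the large subunit by 0.11. No test is given for these means, since the set of genes was proposed with results known.

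The members moved together from embryo to embryo as well as between the diets. Withdrawn embryos 4, 5 and 6 had 79, 75 and 80 of the 83 members above the member's own 12-embryo mean, and withdrawn embryos 1, 2 and 3 had 34, 17 and 25. Among supplied embryos the count was 71 in embryo 6, which carries title number 4, and 4, 8, 25, 29 and 10 in embryos 1 to 5. Supplied embryo 6 was thus nearer in this count to withdrawn embryos 4 to 6 than to the other supplied embryos. All 6 withdrawn embryos lay above the supplied mean in 25 members (30.1%), against 14.5% of all genes tested, and 5 of the 6 did in another 24 members. Only a gene with a positive fold change can meet this. Among positive genes the shares were close, with 25 of 80 members and 1803 of 5794 genes tested.

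**Figure D2:**
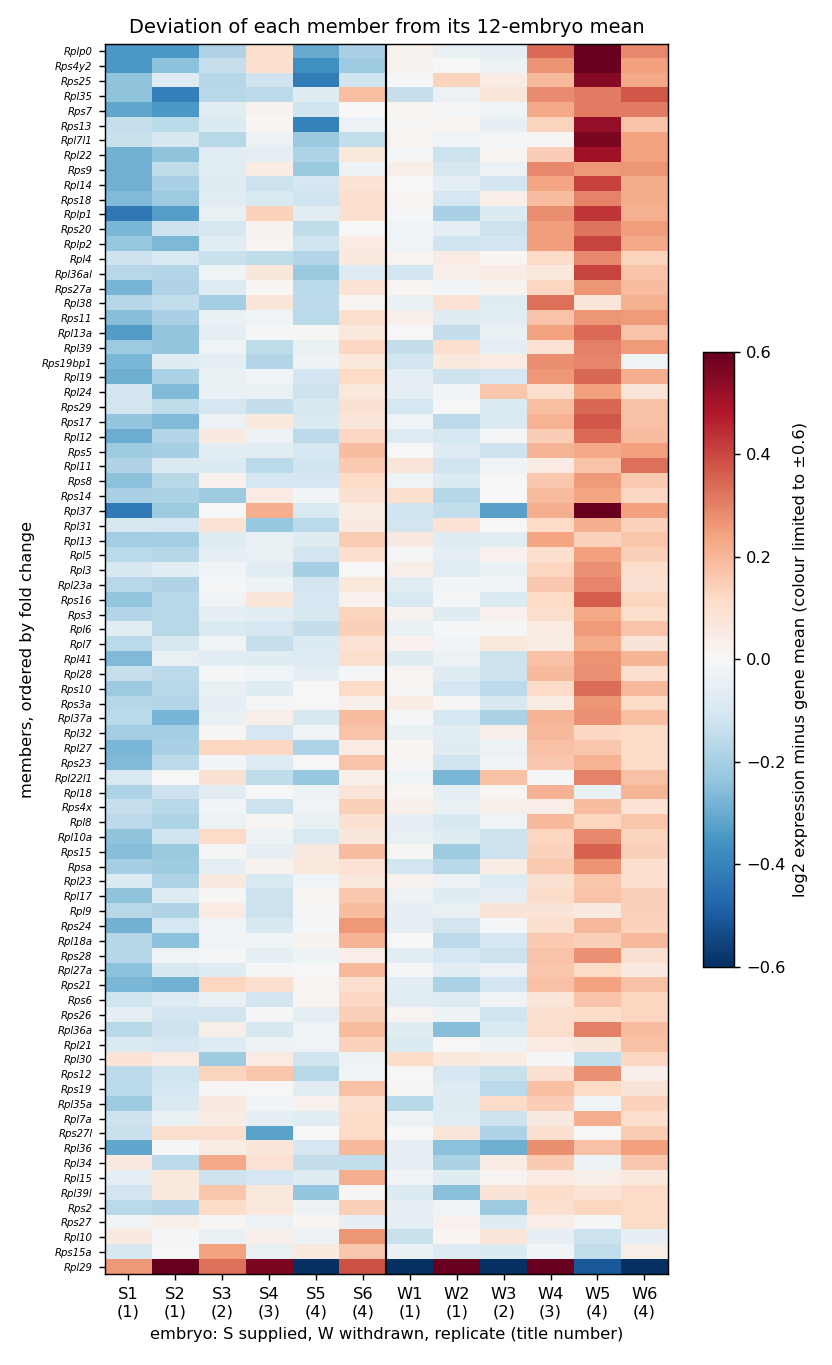
Deviation of each of the 83 members (rows, ordered by fold change) from its own 12-embryo mean in log2 units, by embryo (columns, S supplied, W withdrawn, with title numbers in brackets). Columns W4, W5, W6 and S6 are red for most members, S1 and S2 are blue, and Rpl29 in the last row changes by embryo in both diets.

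Within a title number the mean of the members was higher in withdrawn embryos by 0.12 for number 1 (74 of 83 members positive), 0.18 for number 3 (79 members) and 0.20 for number 4 (78 members). For number 2 the difference was -0.03, with 40 of 83 members positive. Numbers 2 and 3 rest on 1 embryo per diet and have no replicate check. The median of all genes differed by -0.01 within numbers 2 and 4.

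Without the 4 embryos of title number 4, which leaves 4 per diet, limma called 0 members, against 9 with them, and 15 members were higher and 0 lower at an unadjusted p below 0.05. Without the 4 embryos of title number 1, 3 members were called. Calls over all genes went from 1737 to 49 without number 4 and to 729 without number 1. Those calls use the adjusted p. At an unadjusted p below 0.05 no count over all genes is given, here or for the covariate below. The fold change without number 4 was positive in 74 members, with a median of 0.10. With the mean of the supporting cell markers as a covariate, an alternative chosen after seeing the data, 0 members and 1 gene in all were called, with 13 members higher and 0 lower at an unadjusted p below 0.05, and 78 members positive with a median of 0.14. In that fit the fold changes of the 9 called members ran from 0.20 for Rpl4 to 0.43 for Rplp0, with Rps13 at 0.21 in place of 0.27 and Rpl7l1 at 0.24 in place of 0.27.

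In the P stalk, Rplp0, the scaffold that anchors the stalk to the large subunit, rose. It lay between 12.15 and 12.60 in supplied embryos (median 12.25) and between 12.44 and 13.22 in withdrawn embryos (median 12.66). Supplied embryo 4 was the only supplied one inside the withdrawn range, and withdrawn embryo 5 was the highest of the 12. Rplp0 rose by 0.42 (SE 0.11, adjusted p = 0.0133), with 6 of 6 withdrawn embryos above the supplied mean. Its fold change without title number 4 was 0.26 and was not called (adjusted p = 0.224). Rplp1 and Rplp2, the acidic proteins that form the flexible tips, were at 0.21 each and were not called (adjusted p = 0.170 and 0.105).

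In the small subunit 4 of 31 members rose (12.9%), 0 fell and 30 were positive, with a median of 0.13. The share called higher was 6.22% over all genes and 15.6% over the 1244 genes with the highest means. Rps25, a protein of the head used in initiation at viral and some cellular internal entry sites, had the smallest adjusted p among the members. It was 9.77 to 10.11 in supplied embryos (median 10.05) and 10.19 to 10.74 in withdrawn embryos (median 10.36). The diets did not overlap in Rps25, and withdrawn embryo 5 was again the highest. Rps25 was 1 of 2 such members among the 83, against 558 of the 12432 genes tested (4.49%). Rps25 rose by 0.38 (SE 0.08, adjusted p = 0.0064). It was at 0.25 without title number 4 (adjusted p = 0.128).

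Rps7, a protein of the body needed for processing of small subunit rRNA, rose by 0.27 (SE 0.08, adjusted p = 0.0277). Its values were 11.00 to 11.37 in supplied embryos (median 11.25) and 11.32 to 11.66 in withdrawn embryos (median 11.46). Only supplied embryos 4 and 6 reached the lower end of the withdrawn range. Rps13, a protein at a bridge to the large subunit, was 8.86 to 9.28 in supplied embryos (median 9.16) and 9.22 to 9.79 in withdrawn embryos (median 9.34). It rose by 0.27 (SE 0.09, adjusted p = 0.0483), with withdrawn embryo 5 far above the others. Rps9, which binds rRNA early in assembly of the body, was 11.72 to 12.05 in supplied embryos (median 11.90) and 11.91 to 12.30 in withdrawn embryos (median 12.15). It rose by 0.24 (SE 0.08, adjusted p = 0.0429), and the ranges overlapped. The fold changes of these 3 without title number 4 were 0.23, 0.12 and 0.16 in the order given, with adjusted p of 0.223, 0.441 and 0.371.

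Other small subunit proteins were positive without passing the test. Rps6, the substrate of S6 kinase downstream of mTOR, was at 12.31 to 12.55 in supplied and 12.35 to 12.60 in withdrawn embryos, with a fold change of 0.07 (adjusted p = 0.480). Rpsa, which also serves as the laminin receptor, was at 0.10 (adjusted p = 0.414), Rps3a at 0.13 (adjusted p = 0.196), and Rps19, the first gene linked to Diamond-Blackfan anaemia, at 0.05 (adjusted p = 0.699). Rps15a was the exception in this subunit, at 10.57 to 10.91 in supplied embryos (median 10.69) and 10.51 to 10.70 in withdrawn embryos (median 10.61). Its fold change was -0.11 (SE 0.07, adjusted p = 0.287), with 6 of 6 withdrawn embryos below the supplied mean, and it was named after its values were seen.

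In the large subunit 2 of 42 members rose (4.76%, against 6.22% of all genes), 0 fell and 40 were positive, with a median of 0.13. Rpl4, which lines the narrow part of the exit tunnel, was 14.17 to 14.41 in supplied embryos (median 14.22) and 14.36 to 14.64 in withdrawn embryos (median 14.43). Supplied embryo 6 alone overlapped the withdrawn range. Rpl4 rose by 0.21 (SE 0.06, adjusted p = 0.0273). Rpl35, at the rim of the exit tunnel, was 10.76 to 11.35 in supplied embryos (median 11.00) and 11.03 to 11.54 in withdrawn embryos (median 11.35). It rose by 0.29 (SE 0.09, adjusted p = 0.0430), and supplied embryos 5 and 6 fell inside the withdrawn range. Without title number 4, Rpl4 was at 0.17 and Rpl35 at 0.29, and neither was called (adjusted p = 0.188 and 0.145). Rpl35 also lost its call without number 1, 2 or 3.

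Both called proteins of the large subunit belong to the list of the exit tunnel and its rim. In that list 2 of 8 members rose (25%, against 6.22% of all genes and 15.6% of the tenth with the highest means). All 8 were positive (median 0.18). The list was drawn up with earlier results of these data known, so its share is a description only. A further member of that list, Rpl22, a protein at the rim that is dispensable for translation in many cells, was at 0.26 and missed the threshold (SE 0.09, adjusted p = 0.0524). Rpl5 and Rpl11, which carry 5S rRNA into the ribosome and can bind Mdm2, were at 0.15 and 0.16 (adjusted p = 0.127 and 0.168). Among the members with the highest means, Rpl8 was at 0.11, Rpl13a at 0.19 and the small subunit protein Rps3 at 0.14, and none was called (adjusted p = 0.274, 0.120 and 0.143). In the list of mRNA entry and decoding 0 of 4 were called. In that of Diamond-Blackfan anaemia 2 of 20 were higher (10%, against 6.22% of all genes), 0 lower and 19 positive. Both lists had a median of 0.11, and that over all members was 0.14.

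**Figure D3:**
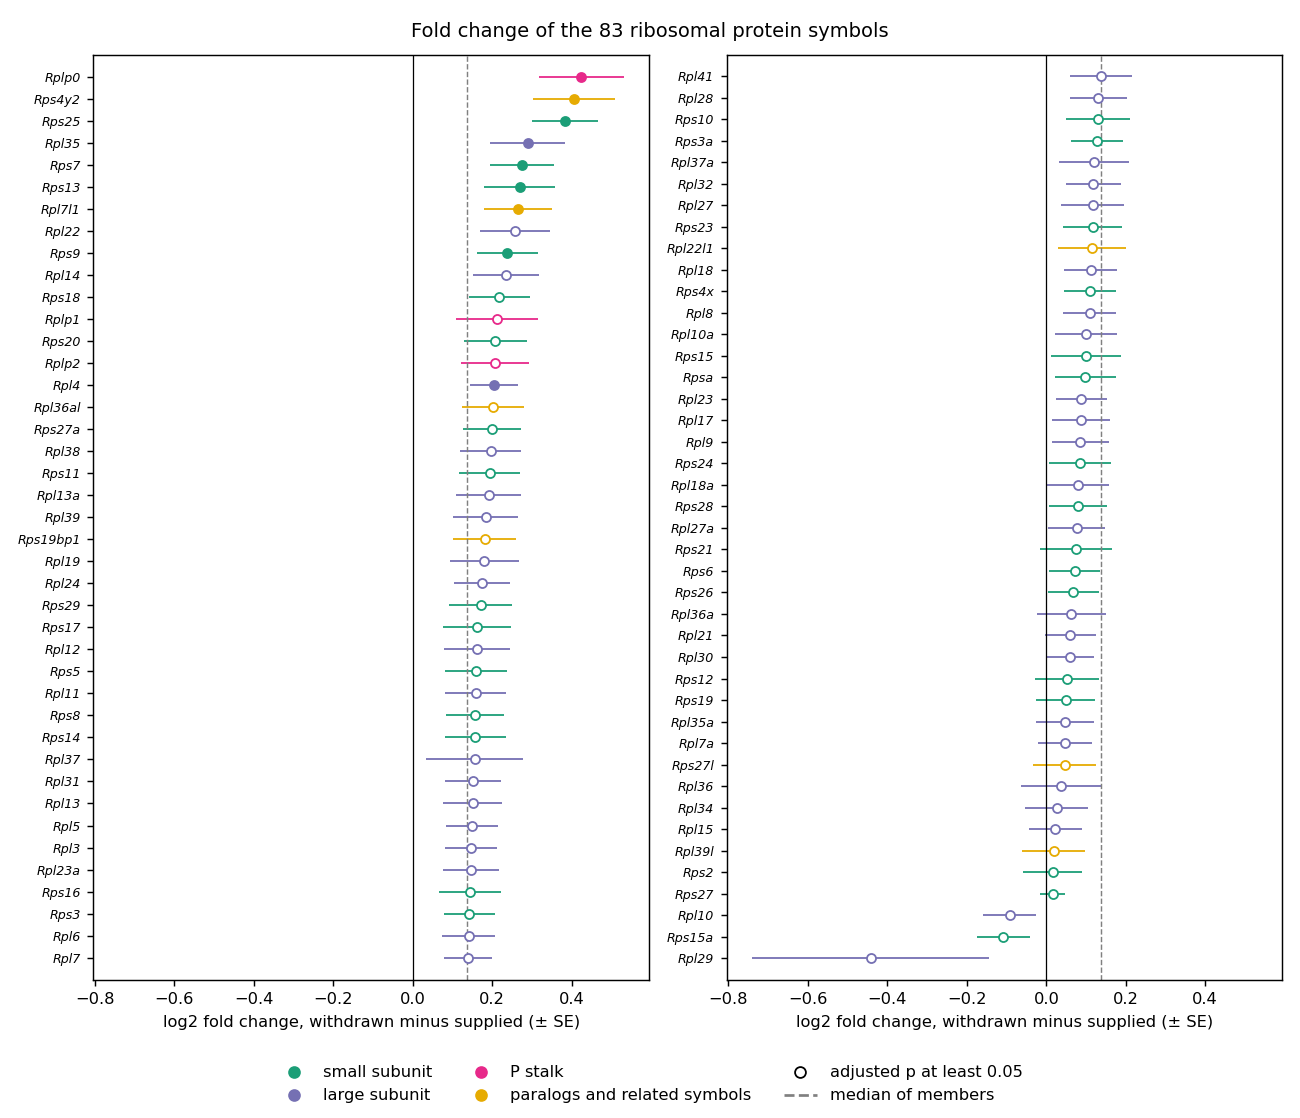
Log2 fold change, withdrawn minus supplied, of each of the 83 members with its SE (x axis), ordered by size and coloured by role; filled points were called and the dashed line is the median of the members, 0.14. All but Rpl10, Rps15a and Rpl29 lie to the right of 0, and the SE of Rpl29 is several times that of the others.

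Rpl29, a protein at the surface of the large subunit, was the least regular member. Its values were 9.97, 10.48, 10.05, 10.28, 8.74 and 10.10 in supplied embryos 1 to 6, and 8.81, 10.77, 8.72, 10.45, 9.21 and 9.01 in withdrawn embryos 1 to 6. Low values between 8.72 and 9.21 occurred in 5 of the 12 embryos, 1 supplied and 4 withdrawn. Of the 4 pairs of embryos that share a title number and diet, 2 held a low and a high value (withdrawn 1 and 2, supplied 5 and 6), while withdrawn 5 and 6 were both low and supplied 1 and 2 both high. The fold change was -0.44 (SE 0.30, adjusted p = 0.334). Its SD within a diet, pooled over both, was 0.76, against a median of 0.14 over the members and 0.29 for the next largest. Of the 50-base windows of its GRCm38 transcript, 33.4% occur in no other annotated gene. Rpl29 was named after its values were seen.

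The 4 X-linked members had 0 calls and a median of 0.09. The 79 autosomal members had 9 calls (11.4%) and a median of 0.14. The share called higher was 6.22% over all genes and 15.6% over the 1244 genes with the highest means. Rpl10, which joins the large subunit last in the cytoplasm, was 9.71 to 10.02 in supplied embryos (median 9.76) and 9.61 to 9.82 in withdrawn embryos (median 9.70). Its fold change was -0.09 (SE 0.07, adjusted p = 0.379), and the ranges overlapped. Only 7.9% of its transcript windows occur in no other annotated gene. Rpl39, a small protein of the exit tunnel, was at 0.18, Rps4x at 0.11 and Rpl36a at 0.06 (adjusted p = 0.131, 0.265 and 0.663). The difference between X-linked and autosomal members was not tested.

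Of the paralogs and related symbols 2 of 7 rose (28.6%, against 6.22% of all genes), 0 fell and 7 were positive (median 0.18). Rps4y2 was 11.38 to 11.85 in supplied embryos (median 11.52) and 11.72 to 12.46 in withdrawn embryos (median 11.88). Supplied embryo 4 was the only supplied one above the lowest withdrawn value, as for Rplp0, and withdrawn embryo 5 was the highest. The fold change was 0.41 (SE 0.10, adjusted p = 0.0138), while the X-linked protein gene Rps4x was at 0.11. Without title number 4, Rps4y2 was at 0.22 (adjusted p = 0.239).

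Rpl7l1, a paralog of Rpl7 found in precursors of the large subunit, was the second member whose diets did not overlap. It was 9.85 to 10.04 in supplied embryos (median 9.94) and 10.05 to 10.64 in withdrawn embryos (median 10.09). Withdrawn embryos 5 and 6 stood above the other 4, which lay between 10.05 and 10.09. Rpl7l1 rose by 0.27 (SE 0.09, adjusted p = 0.0411) and was at 0.10 without title number 4 (adjusted p = 0.457). Rpl36al was at 0.20, Rps19bp1 at 0.18, Rpl22l1 at 0.11, Rps27l at 0.05 and Rpl39l, a form known from the testis, at 0.02, and none was called (adjusted p = 0.0857, 0.125, 0.392, 0.745 and 0.902).

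**Figure D4:**
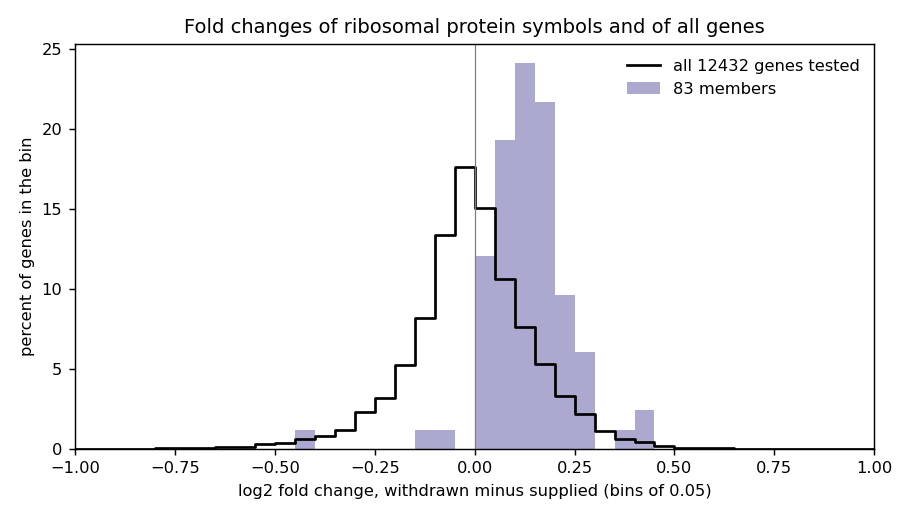
Percent of genes (y axis) in bins of 0.05 of the log2 fold change, withdrawn minus supplied (x axis), for the 83 members (filled) and all 12432 genes tested (line), shown from -1 to 1. The members peak between 0.10 and 0.15 and the line peaks just below 0.

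Ribosomal protein genes have many processed copies, so their reads can be shared between genes. In GRCm38 transcripts, a median of 44.5% of a member's 50-base windows occurred in no other annotated gene, with a range from 1.4% to 100%. Rps27, with 1.4%, shares 98.6% of its windows with Rps27rt and was at 3.96 ± 0.03 (SD, n = 6) in supplied and 3.98 ± 0.07 (SD, n = 6) in withdrawn embryos. Rpl30 (fold change 0.06) and Rpl34 (0.03) also had low means and were not called (adjusted p = 0.529 and 0.856). Among the called members, the share of windows found in no other gene was 4.9% for Rpl35, 17.0% for Rps13, 29.7% for Rps7, 38.8% for Rps25, 58.2% for Rplp0 and 67.0% for Rps9, whose values are therefore uncertain. It was 82.0% for Rps4y2 if the match to Rps4l holds, 83.5% for Rpl4 and 90.8% for Rpl7l1. Of the 12 members with at least 80%, those 3 were called, against 6.22% of all genes called higher. The mean of the 12 was higher in withdrawn embryos by 0.17. Among the 12, Rps4y2, Rpl7l1, Rpl39l and Rps19bp1 are paralogs or related symbols, and Rpl4 was the only one called of the others. How the authors treated reads that fit several genes is not given in the sources used here.

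Members with high means were compared with other genes of high mean, since such genes were more often positive. Of the 1244 genes with the highest means, 64.5% were positive, 15.6% were called higher and the median was 0.06. The 41 members among them were all positive, 6 (14.6%) were called higher and their median was 0.15. In this range the share of members called was close to that of all genes. This comparison was chosen after seeing the data.

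With each embryo centred on the mean of its members, the shift common to the set is removed. In that fit 0.547% of all genes were called higher and 14.2% lower. Rplp0 was the only member called, at 0.29 above the shift of the set (adjusted p = 0.0431). Rps4y2 at 0.28 and Rps25 at 0.25 missed the threshold (adjusted p = 0.0525 for both), as did Rps15a at -0.24 (adjusted p = 0.0649), Rpl10 at -0.22 (adjusted p = 0.0918) and Rpl29 at -0.57 (adjusted p = 0.148). The centring was chosen after seeing the data.

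Fau, which encodes a small subunit protein fused to a ubiquitin-like part, was at 0.18 and was not called (adjusted p = 0.163). Gnb2l1 (Rack1), a scaffold on the small subunit, was at 0.15 and was not called (adjusted p = 0.163). Of the excluded symbols, Rpl34-ps1 was at 0.14, Rps19-ps3 at 0.04 and Rpl10l at 0.01, and none was called.

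Among 14 other mRNAs with a TOP motif, 4 rose (28.6%), 0 fell and 13 were positive, with a median of 0.14, as in the members. Over all genes 6.22% were called higher, and over the 1244 genes with the highest means 15.6%. Npm1, a nucleolar chaperone, was 13.77 to 14.06 in supplied and 14.12 to 14.40 in withdrawn embryos without overlap, and rose by 0.26 (SE 0.06, adjusted p = 0.0092). Tpt1 rose by 0.25, the elongation factor Eef1b2 by 0.27 and the initiation factor Eif3e by 0.22 (adjusted p = 0.0208, 0.0283 and 0.0395). The elongation factors Eef1a1 and Eef2, also TOP mRNAs, were at 0.05 and -0.05 and were not called (adjusted p = 0.574 and 0.550).

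Of 27 genes of ribosome assembly and export, 10 rose (37%), 0 fell and 26 were positive, with a median of 0.22. The share called higher was 6.22% over all genes and 15.6% over the 1244 genes with the highest means. Ncl, the nucleolar protein nucleolin, rose by 0.34 (SE 0.07, adjusted p = 0.0043), from 15.03 to 15.46 in supplied embryos to 15.49 to 15.79 in withdrawn embryos without overlap. Aamp, the counterpart of the yeast chaperone that delivers Rpl10, rose by 0.45 (SE 0.10, adjusted p = 0.0075), the 18S end nuclease Nob1 by 0.31 (SE 0.07, adjusted p = 0.0077) and its partner Pno1 by 0.36 (SE 0.09, adjusted p = 0.0099). Rpl10 itself was among the 3 members with a negative fold change. Whether the assembly genes differ from the members was not tested.

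Of 13 genes of mTOR signalling and TOP control, 2 rose (15.4%) and 1 fell (median 0.05), against 6.22% higher and 7.75% lower over all genes. Eif4ebp1, an inhibitor of cap-dependent initiation that mTOR switches off, rose by 0.42 (SE 0.09, adjusted p = 0.0072). Larp1, which binds TOP mRNAs, rose by 0.23 (SE 0.07, adjusted p = 0.0370), and Tsc1, part of the complex that restrains mTOR, fell by 0.23 (SE 0.07, adjusted p = 0.0283). Mtor itself was at -0.02 (adjusted p = 0.872) and Mycn, a transcriptional activator of ribosomal protein genes, at 0.18 (adjusted p = 0.109). Protein levels and phosphorylation were not measured.

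Of 14 genes of RNA polymerase I, which makes rRNA, 1 rose (7.14%, against 6.22% of all genes), with a median of 0.08. It was the initiation factor Rrn3, at 0.31 (SE 0.08, adjusted p = 0.0141). The listed gene Rn45s, the 45S precursor of rRNA, was 20.39 to 21.03 in supplied embryos (median 20.86) and 19.81 to 20.73 in withdrawn embryos (median 20.35). It fell by 0.44 (SE 0.14, adjusted p = 0.0371), against the direction of the members. Whether its reads came from the precursor or from mature rRNA left in the library was not tested. Quantile normalization gives Rn45s the same value in every library, since it is the highest gene in each. Its fold change was -0.20 without title number 4 (adjusted p = 0.524). It made up 8.37% to 18.0% of the summed linear values of an embryo, and its part in the fold changes of the members was not tested. Of the partners of Rpl5 and Rpl11, Mdm2 was at -0.02 (adjusted p = 0.869) and Trp53 at 0.27 (adjusted p = 0.0569). Without title number 4, 0 genes were called in each of these pathway lists.

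**Figure D5:**
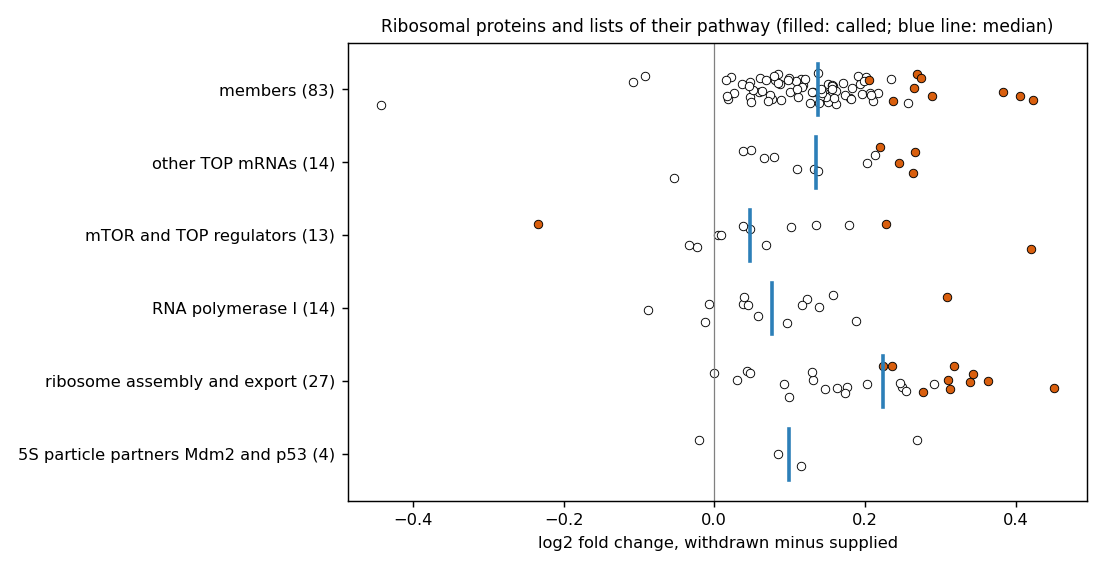
Log2 fold change, withdrawn minus supplied (x axis), of the 83 members and of the genes of 5 pathway lists (rows, number of genes tested in brackets); each point is a gene, filled where called, and the blue line is the median. The medians of the members and of the other TOP mRNAs are both 0.14, and that of ribosome assembly and export is 0.22.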

How the data were processed

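The authors deposited normalized log2 values for 12516 gene symbols, 1 column per embryo. The submitters' processing notes name build mm9 with DESeq2 1.10.1, TopHat2 2.0.13, Trim Galore 0.4.0 and FastQC, in no order. How genes were counted, annotated and filtered, and the kind of log2 transformation, is not given in the sources used here. Depth is unknown, so no count test was run, and low genes may have understated fold changes.

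Genes with a mean of at least log2 of 10 (3.32) were kept, 12432 in all. limma 3.58.1 in R 4.3.3 (trend on expression, two-sided) compared the 6 withdrawn with the 6 supplied embryos. The random effect used statmod 1.5.0. The fit was tested on simulated data.

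The members and lists were chosen with earlier results of these data known. Members were named where called (up to 10 per direction), among the 4 highest or 4 lowest means, or in the related symbols, P stalk, 5S particle or X-linked group. Rps6, Rpsa, Rps19, Rpl22, Rps27 and Rps3a were also named. Pathway genes were the 4 smallest p among those called in a list, with a short preset set. Rpl29, Rps15a, Rn45s, Eef1a1, Eef2 and the excluded symbols were added after their values were seen. Windows, start sequences and chromosomes came from GRCm38 references. A result for 1 gene of the pathway lists is not reported here.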

Additional observations from a re-analysis of the deposited data

Results flagged for a closer look

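The highest or lowest value of each diet was compared with the nearest other value, for 56 genes and means and 112 groups of 6 embryos. A gap above Dixon's critical share of the group's range was noted, which chance gives in about 1 of 20 groups, and 6 were found. Supplied embryo 4 was the highest for Rplp0, at 12.595, with the nearest at 12.318. Supplied embryo 6 was the highest for Rpl4 at 14.409, for Rpl11 at 10.5915 and for Rpl10 at 10.0151. Supplied embryo 5 was the lowest for Rpl29 at 8.743 and for the TOP mRNA Npm1 at 13.7711. The number found is close to what 1 in 20 gives over 112 groups. All 6 were in supplied embryos, and 3 of them in supplied embryo 6, the supplied embryo with the highest mean of the members. The members of an embryo moved together, so these 3 are not independent.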

How the results depend on the processing

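Across 31 alternatives the 9 called members stayed positive, and no alternative called a member lower. The number called higher was 9 as reported, beside 1737 calls over all genes in either direction. For the alternatives, a number in brackets gives the calls over all genes. The number of members called higher was 3 with quantile normalization (1550) and 5 without the variance trend (1510). It was 3 with a random effect for title number and diet (886), and 1 with embryos of a title number and diet averaged (298). It was 2 by the exact permutation test (558), 1 at adjusted p below 0.01 (444) and 18 at adjusted p below 0.10 (2723). It was 3 among the 12 members with at least 80% unique windows. It was 3 without title number 1 (729), 0 without title number 4 (49), and 0 with the supporting cell covariate (1). Leaving out 1 embryo at a time gave 3 to 13, with 808 to 2315 calls over all genes. The number was 3 without supplied replicate 5 or withdrawn replicates 5 or 6. It was 4 without supplied replicates 1, 2 or 3 or withdrawn replicate 4. With a replicate block by title number the number of members called higher was 19 (2062). The labels do not say whether the title numbers pair the samples. Correlations of same-numbered deviations were 0.27, -0.10, 0.18 and -0.17, and those of different numbers ran from -0.36 to 0.30. Resting on 1 or 2 embryos per number and diet, these correlations cannot decide it, so the block is an alternative only. Rplp0 and Rps4y2 lost their call in 5 alternatives and Rps25 in 2, while Rpl35 and Rps9 lost it in 18, Rps13 in 19, Rpl7l1 in 17 and Rps7 and Rpl4 in 14. The positive count stayed between 74 and 80, and the difference in the mean of the members between 0.09 and 0.17.

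Among the genes named with values, signs turned only in uncalled ones near 0. Other members also turned, since the positive count was 74 without title number 4 and 74 after the correction for length and GC. With the length and GC trend removed, Rps27 was at -0.010, Rpl34 at -0.012, Rpl39l at -0.021 and Mtor at 0.061. Without title number 4, Rps27 was at -0.012, Rpl34 at -0.064, Rpl39l at -0.078 and Mtor at 0.083. Without title number 3, Rps27l was at -0.029, and without title number 2, Mdm2 was at 0.00079. With array weights, Rpl39l was at -0.019, Mdm2 at 0.0052 and Mtor at 0.017. With embryos averaged, Mtor was at 0.013, and with the covariate Rpl34 was at -0.0033. Leaving out 1 embryo at a time gave -0.0058 to 0.032 for Rps27, -0.0031 to 0.075 for Rpl34, -0.026 to 0.070 for Rpl39l, -0.014 to 0.088 for Rps27l, -0.047 to 0.011 for Mdm2 and -0.063 to 0.032 for Mtor. The cause was not tested.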
